A study of Mus musculus with 24 samples.

Results

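The mitochondrial ribosome genes were taken as every gene whose symbol begins with Mrpl or Mrps followed by a number, which gave 78 of the 27179 genes in the deposited table. Of these, 49 carry the symbol Mrpl and 29 the symbol Mrps. The mitochondrial ribosome (mitoribosome) sits at the inner membrane of the mitochondrion and makes the few proteins that mitochondrial DNA encodes, which are core subunits of the respiratory chain and the ATP synthase. Its RNAs come from mitochondrial DNA, whereas its proteins are encoded in the nucleus, made in the cytoplasm and imported. Some of these proteins descend from the ribosome of the bacterial ancestor of mitochondria and others were added later. Their genes are active in most cells, with more product in tissues of high respiratory demand.

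H3K4m3, histone H3 trimethylated at lysine 4, marks the start region of genes that are active or held ready for activity, and H3K4m3-seq sequences the DNA bound to it. Mouse brain, heart, kidney and liver were each preserved as formalin-fixed, paraffin-embedded (FFPE) blocks or by flash freezing. The labels list 24 samples, 12 of H3K4m3 and 12 of input chromatin, with 8 FFPE and 4 frozen samples among those of H3K4m3. The table used here holds 8 columns, 1 for each organ and preservation type, and each column is called a library below. No column names its antibody, and H3K4m3 was assumed from the titles of table and series. The sources used here do not say if an FFPE column stands for 1 FFPE sample of its organ or for both. FFPE chromatin was freed from paraffin and extracted with heat, whereas frozen cores were crosslinked freshly with formaldehyde, and 2 families of library kits are named without a sample list. The labels carry 2 dates, 1 shared by the frozen samples and the first FFPE set and another for the second FFPE set, without saying what a date marks. Preservation, chromatin preparation and any difference in kit or date therefore cannot be told apart. Strain, age, sex and genotype of the mice are not given in the labels, nor whether libraries came from separate animals, so each p-value rests on spread that may be technical only.

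The values are the authors' normalized log2 values per gene, which are reads scaled by a factor for each library. This factor does not go by depth alone. Depth was 3388631 to 5275085 reads in the FFPE libraries and 1792394 to 2976029 reads in the frozen libraries. The members had a median of 102 to 165.5 reads in the FFPE libraries and 82.5 to 156.5 reads in the frozen libraries. Of 8 markers fixed for each organ, 7 or 8 were highest in their own organ within FFPE and within frozen libraries. Summed reads of markers of other cells and of other organs were higher in FFPE tissue, but medians and calls did not all go this way. The 7 blood and immune markers summed to 121 to 177 CPM (reads scaled to a common library size) in FFPE libraries, against 68.8 to 88.7 CPM in frozen libraries, and 1 of them, the haemoglobin gene Hbb-bs, had 0 reads in frozen brain. The 6 endothelial markers summed to 179 to 568 CPM in FFPE libraries, against 121 to 512 CPM in frozen libraries, and each of these sums was higher in FFPE in all 4 organs. In the 3 organs they do not mark, kidney markers summed to 151 to 212 CPM in FFPE, against 62.2 to 76.8 CPM in frozen libraries, and heart markers to 253 to 346 CPM in FFPE, against 90.1 to 213 CPM in frozen libraries. Brain markers summed there to 290 to 365 CPM in FFPE, against 160 to 288 CPM in frozen libraries. Liver markers summed to 114 to 145 CPM in FFPE, against 82 to 120 CPM in frozen libraries. By median log2 value, brain markers were higher in FFPE in 2 of these 3 organs and endothelial markers in 3 of 4. The other lists were higher in each such organ. In the model below 0 liver markers passed as higher in FFPE and 1 as lower. Of each other list 1 to 3 passed as higher and 0 as lower. The spread of all tested genes was narrower in FFPE libraries, with an SD of 1.59 to 1.77 log2 units, against 2.10 to 2.35 in frozen libraries. The part of marker levels and of this spread in the differences below was not tested.

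Most mitochondrial ribosome genes carried less H3K4m3 signal in FFPE tissue than in frozen tissue. With organ and preservation in 1 limma model, 57 of the 78 members (73.1%) were lower in FFPE at a Benjamini-Hochberg adjusted p under 0.05, and 0 were higher. Of the 25680 genes tested, 21.3% were lower in FFPE and 16.5% were higher by the same rule, and all 78 members were among the genes tested. At an unadjusted p under 0.05 the counts were 64 members lower and 0 higher, beside 25% and 24.5% of all tested genes. The median fitted difference, FFPE minus frozen, was -0.805 log2 units over the members, with the middle of the distribution between -1.01 and -0.54, and 0.18 over all tested genes. In bulk tissue, fewer cells carrying the mark, less mark per cell and a difference in chromatin preparation cannot be told apart.

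The same was visible without a model. Member reads summed to 2794, 2672, 2846 and 3067 CPM in FFPE brain, heart, kidney and liver, against 4050, 4129, 4664 and 4990 CPM in the frozen libraries of these organs. Every FFPE sum lay below every frozen sum. All 4 FFPE libraries lay below all 4 frozen libraries in 56 members (71.8%), which held for 17.1% of all tested genes. The opposite order was found in 1 member, Mrps21, and was not counted over all tested genes.

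**Figure D1:**
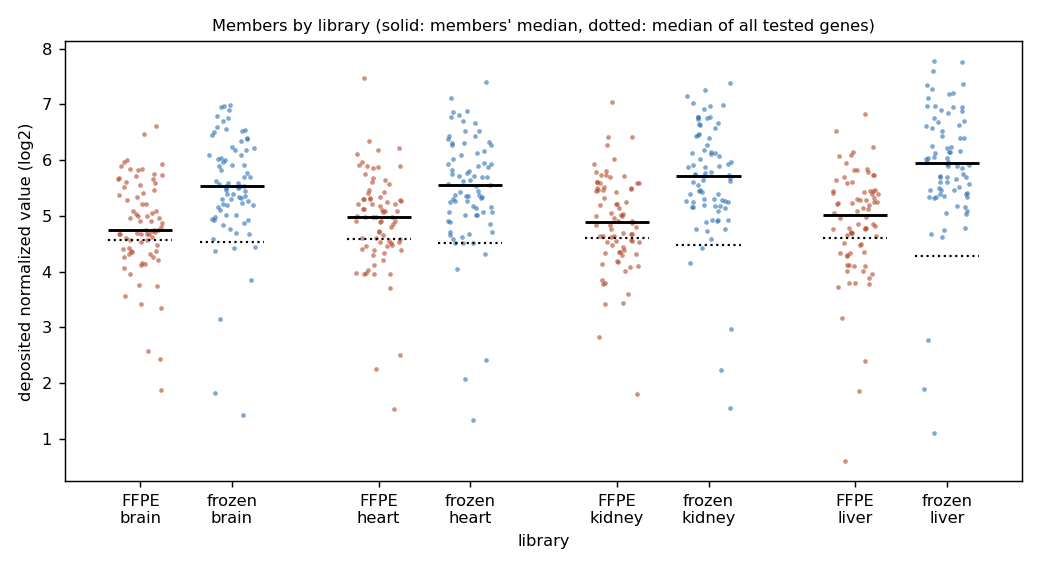
Deposited log2 value (vertical axis) of each of the 78 members in the 8 libraries (horizontal axis), FFPE left of frozen in each organ; each point is a gene, the solid line the members' median and the dotted line the median of all tested genes. The members' medians are 4.75 to 5.01 in FFPE libraries and 5.53 to 5.95 in frozen libraries.

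Within organs, in the deposited values, the members' median difference was furthest from 0 in liver and closest to 0 in heart. The order was not the same in the CPM sums above, which go by depth. There the fold between frozen and FFPE was smallest in brain and about level in kidney and liver. The members' median difference was -0.77 in brain, -0.58 in heart, -0.81 in kidney and -1.12 in liver, while that of all tested genes lay between 0.03 and 0.13. Members lower in FFPE numbered 75 in brain, 67 in heart, 73 in kidney and 76 in liver. Of all tested genes 48.5%, 47.8%, 47.1% and 46.3% were lower in these organs. In 66 members the FFPE library was the lower in all 4 organs, which held for 26.6% of all tested genes. It was lower in 3 organs for 7 members, in 2 organs for 3 members, and in 0 organs for Mrps6 and Mrps21. Each organ has 1 library of each kind, so differences between organs in the size of this effect were not tested.

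**Figure D2:**
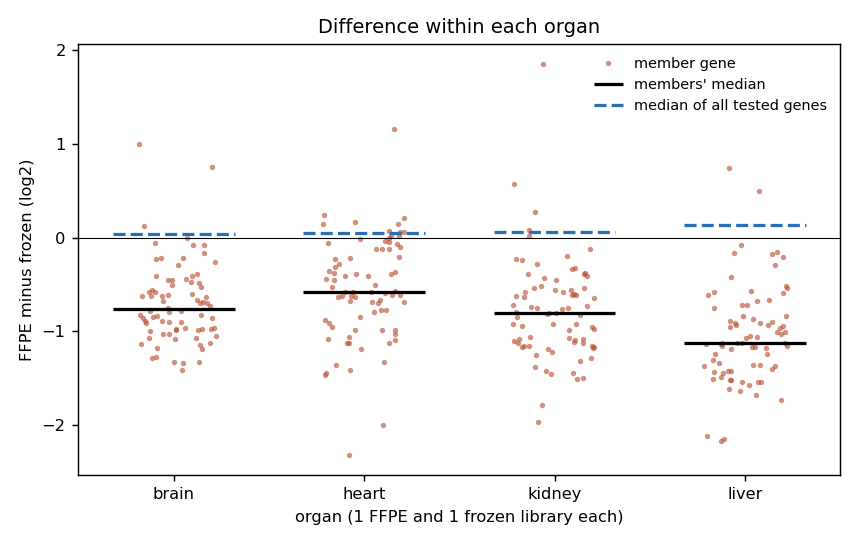
FFPE minus frozen log2 value (vertical axis) of the 78 members within each organ (horizontal axis); points are genes, black lines the members' medians and dashed lines the medians of all tested genes. The members' medians are -0.77, -0.58, -0.81 and -1.12 in brain, heart, kidney and liver, each below the dashed line.

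The members with the largest differences, Mrps17 and Mrps28, belong to the small subunit, the part of the ribosome that binds the messenger RNA. Mrps17, which encodes the counterpart of bacterial S17, an RNA-binding protein of the small subunit (gene ID 66258, GRCm38 chr5:129715450-129718712), had log2 values of 4.68, 3.95, 4.29 and 4.76 in FFPE brain, heart, kidney and liver, against 5.76, 6.28, 6.26 and 6.40 in the frozen libraries. The highest FFPE value was about 1 log2 unit below the lowest frozen value, which was that of brain. FFPE averaged 4.42 ± 0.38 and frozen 6.18 ± 0.28 (SD, n = 4 organs each). The fitted difference was -1.75 ± 0.21 (SE), or 3.37-fold lower in FFPE, with an adjusted p of 0.000161 (limma). Mrps28, also of the small subunit (gene ID 66230, chr3:8802146-8923857), had 4.81, 3.95, 4.33 and 4.10 in FFPE brain, heart, kidney and liver, against 5.69, 5.95, 6.12 and 6.22 in the frozen libraries. The libraries again did not overlap, and the difference was smallest in brain. It was 3.25-fold lower in FFPE, at -1.70 ± 0.22 with an adjusted p of 0.000203 (limma). The annotated span of Mrps28 overlaps 3 predicted genes, whose reads cannot be separated from its own if reads were counted over the whole span.

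In the large subunit, which joins amino acids into protein, the leading members were Mrpl54 and Mrpl52, both without a bacterial counterpart, and Mrpl36, the counterpart of bacterial L36. Mrpl54 had 4.27, 3.98, 4.48 and 3.89 in FFPE brain, heart, kidney and liver, against 5.34, 5.45, 5.64 and 6.05 in the frozen libraries. Its frozen value was highest in liver and its FFPE value lowest there. The fitted difference was -1.47 ± 0.23 (SE) with an adjusted p of 0.000451 (limma). Mrpl52 had 4.69, 5.29, 5.01 and 5.19 in FFPE libraries in the same organ order, against 5.89, 6.38, 6.48 and 6.63 in frozen libraries, a difference of -1.30 ± 0.16 (adjusted p = 0.000164, limma). Brain was the lowest organ in either kind of tissue, and the libraries did not overlap. Mrpl36 rested on few reads, with 19, 9, 19 and 6 in FFPE libraries and 21, 9, 17 and 17 in frozen libraries. Its difference of -1.38 ± 0.46 had an adjusted p of 0.0305 (limma), which was lost without either brain, kidney or liver library, with a highest adjusted p of 0.115 over the alternatives.

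The promoter stretch of Mrpl52 is shown because it is 1 of the 6 members with the largest difference and holds a binding core of ETS factors, activators common at genes of general cell upkeep. It is given 5′ to 3′ on the strand of the gene, chr14:54426759-54426908 (RefSeq, GRCm38.p6), with the core CCGGAAG or its reverse complement in capitals.
Mrpl52: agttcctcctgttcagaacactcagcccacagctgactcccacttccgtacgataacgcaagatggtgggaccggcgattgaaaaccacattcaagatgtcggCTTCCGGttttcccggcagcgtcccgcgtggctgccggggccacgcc

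Mrps36 was the fifth by size and carries a ribosomal symbol, but its product is now known as KGD4, a subunit of the 2-oxoglutarate dehydrogenase complex of the citric acid cycle. It had 4.35, 4.11, 4.39 and 4.49 in FFPE brain, heart, kidney and liver, against 5.69, 5.56, 5.72 and 5.69 in the frozen libraries. Its frozen values varied little between organs (5.66 ± 0.07, SD, n = 4), as did its FFPE values (4.34 ± 0.16). The difference was -1.33 ± 0.19 with an adjusted p of 0.000306 (limma). In the subunit counts below Mrps36 was placed in neither subunit.

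**Figure D3:**
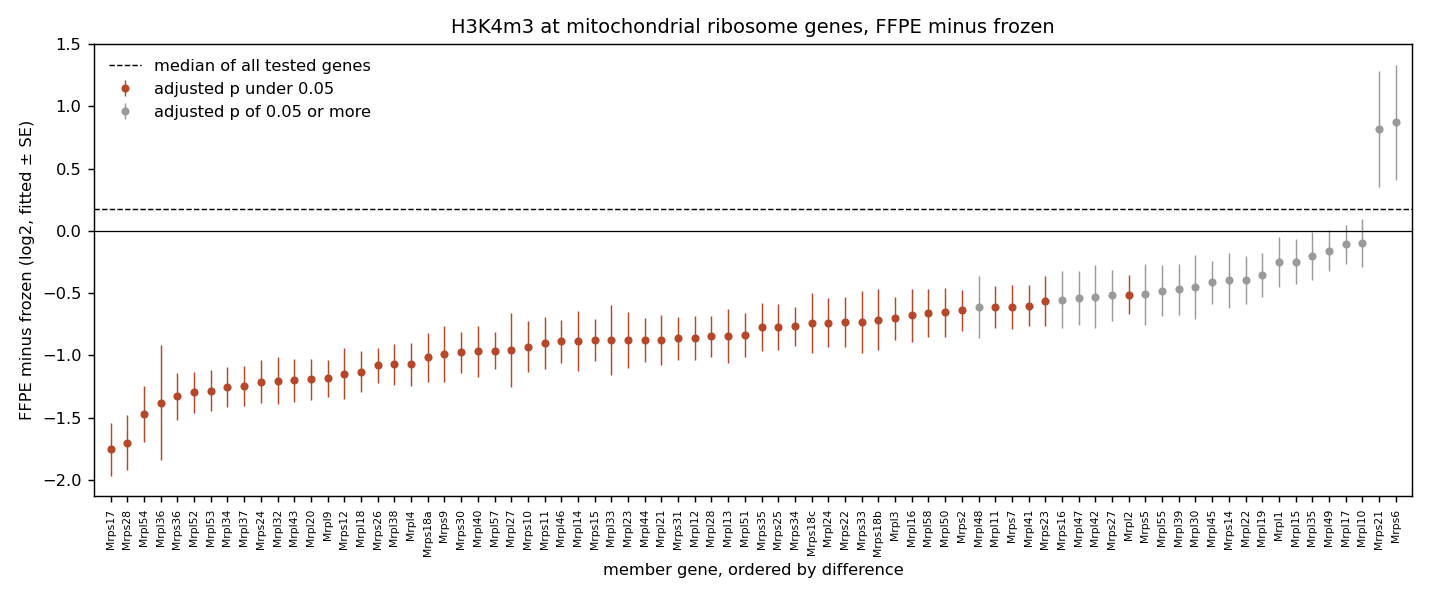
Fitted FFPE minus frozen log2 difference (vertical axis, points with SE) of the 78 members in order of size (horizontal axis); red marks an adjusted p under 0.05, grey the rest, and the dashed line the median of all tested genes, 0.18. The 57 red members lie between Mrps17 at -1.75 and Mrpl2 at -0.51, and Mrps21 and Mrps6 lie alone above 0.

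A group of members was nearly level between the preservation types. Mrpl10, the counterpart of bacterial L10, which anchors the stalk where translation factors bind, had 4.67, 4.88, 5.00 and 5.14 in FFPE brain, heart, kidney and liver, against 4.93, 4.89, 4.93 and 5.36 in the frozen libraries. The libraries overlapped, at a difference of -0.10 ± 0.19 (adjusted p = 0.69, limma). Mrpl17, whose bacterial counterpart lies near the exit of the growing protein, had 6.47, 7.47, 7.04 and 6.82 in FFPE libraries, against 6.70, 7.41, 6.77 and 7.37 in frozen libraries. Heart was its highest organ in either kind of tissue, and the difference was -0.11 ± 0.15 (adjusted p = 0.588, limma). Mrpl49, a large subunit protein with no bacterial counterpart, had 5.34, 5.13, 5.43 and 5.74 in FFPE libraries, against 5.40, 5.36, 5.63 and 5.89 in frozen libraries. It was slightly lower in FFPE in each organ, by -0.16 ± 0.17 (adjusted p = 0.454, limma). The annotated span of Mrpl49 overlaps that of another gene, Syvn1. The sign of these 3 small differences depended on the scaling: under quantile normalization Mrpl10, Mrpl17 and Mrpl49 were at 0.02, 0.41 and 0.14, and Mrpl17 then passed as higher in FFPE (adjusted p = 0.0191, limma).

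The promoter of Mrpl17 (chr7:105811088-105811237, minus strand, RefSeq, GRCm38.p6) is shown as that of the member with little difference and the largest read numbers in FFPE heart and kidney. Capitals mark the core GCGCATGC of NRF1, an activator of many nuclear genes for mitochondrial proteins.
Mrpl17: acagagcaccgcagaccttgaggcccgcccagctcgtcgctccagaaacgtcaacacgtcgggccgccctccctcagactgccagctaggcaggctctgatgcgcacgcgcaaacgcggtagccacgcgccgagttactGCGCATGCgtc

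Mrps6 and Mrps21, counterparts of bacterial S6 and S21 in the small subunit, were the only members above 0. Mrps6 had 28, 18, 39 and 15 reads in FFPE brain, heart, kidney and liver, against 6, 4, 10 and 5 reads in the frozen libraries, and its fitted difference was 0.87 ± 0.47 (adjusted p = 0.148, limma). Mrps21 had 31, 15, 59 and 22 reads in FFPE libraries, against 8, 7, 6 and 9 in frozen libraries, at 0.82 ± 0.46 (adjusted p = 0.169, limma). Neither passed, and they had the fewest reads of all members in every frozen library. The span of Mrps6 overlaps Slc5a3, a myo-inositol transporter gene.

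**Figure D4:**
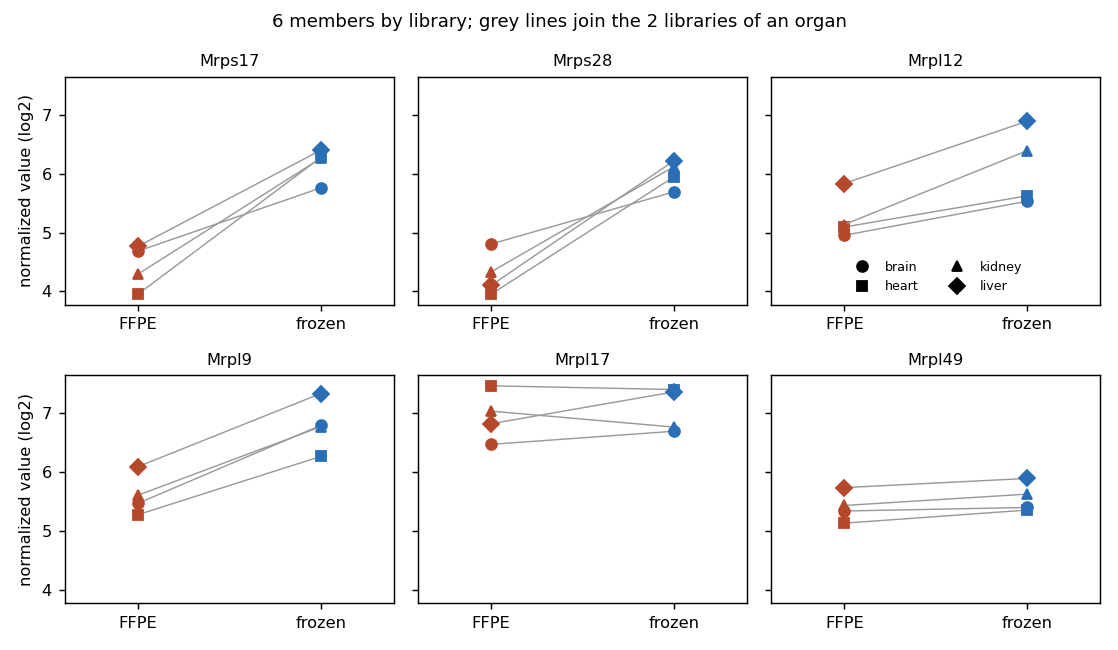
Deposited log2 value (vertical axis) of 6 members in FFPE (left, red) and frozen (right, blue) libraries, with marker shape for the organ and grey lines joining the libraries of an organ. Mrps17 and Mrps28 separate by preservation, Mrpl12 and Mrpl9 are highest in liver within each preservation type, and Mrpl17 and Mrpl49 overlap.

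Sorted by place in the ribosome, the groups gave similar medians. Under the unified names of ribosomal proteins, Mrps18a and Mrps30 encode large subunit proteins (mL66 and mL65), so the large subunit held 51 members and the small subunit 26. Lower calls were made for 36 of the 51 large subunit members, at a median of -0.84 log2 units, and for 20 of the 26 small subunit members, at a median of -0.75. Proteins with a bacterial counterpart had 31 lower calls among 46 (median -0.79), and proteins particular to mitochondria had 25 among 31 (median -0.77). No difference between these groups was tested.

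Members that work at the same site of the ribosome had unlike values, and the differences between them were not tested. The examples in this paragraph were chosen for their roles after the values had been seen. In the stalk, which recruits translation factors, Mrpl12 differed by -0.86 ± 0.18 (adjusted p = 0.00255, limma) and Mrpl11 by -0.61 ± 0.17 (adjusted p = 0.0133, limma), whereas Mrpl10 was at -0.10. Around the exit for the growing protein, Mrpl23 was at -0.88 ± 0.22 and Mrpl24 at -0.74 ± 0.20, and both passed as lower. Mrpl22 at -0.39 ± 0.19 and Mrpl47, the counterpart of bacterial L29, at -0.54 ± 0.22 did not pass, with adjusted p of 0.115 and 0.0643 (limma). Mrpl45, which holds the mitoribosome to the inner membrane, was at -0.41 ± 0.17 (adjusted p = 0.0697, limma). Mrps12, part of the decoding centre, was at -1.15 ± 0.21 (adjusted p = 0.00105, limma), and Mrpl58, a hydrolase that frees stalled proteins and was built into the large subunit, at -0.66 ± 0.19 (adjusted p = 0.0177, limma).

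Other genes of mitochondrial translation were also mostly lower in FFPE. Of 5 mitoribosomal proteins whose symbols do not begin with Mrp, 4 were lower in FFPE, led by Gadd45gip1 at -1.07 ± 0.17 (adjusted p = 0.000595, limma), and Dap3, a GTP-binding protein of the small subunit, was lower at -0.50 ± 0.14. Ptcd3, an RNA-binding small subunit protein, was the 1 that did not pass, at -0.26 ± 0.17 (adjusted p = 0.223, limma). Among 17 mitochondrial aminoacyl-tRNA synthetases, which load tRNAs with amino acids, 10 were lower and 0 higher (median -0.65), with Fars2 at -1.13 and Yars2 at -1.03. Among 13 translation factors, 8 were lower and 0 higher (median -0.72), led by Mtfmt, which formylates the initiator tRNA, at -1.12, and Mtrf1, a member of the release factor family, at -1.03. Of 26 factors that assemble the mitoribosome or mature its RNA, 17 were lower (median -0.73), led by Malsu1 at -1.22, and 1 was higher, Mterf3, at 1.35 ± 0.36 (adjusted p = 0.0109, limma). Mterf3 had 3.57, 4.01, 4.17 and 3.13 in FFPE brain, heart, kidney and liver, against 2.26, 2.08, 2.98 and 2.17 in the frozen libraries, with no overlap.

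Lower values in FFPE were not confined to genes of mitochondrial translation. Of 85 genes of cytoplasmic ribosomal proteins, 59 were lower and 1 higher (median -0.70), with Rplp2, a stalk protein, at -1.52 ± 0.21 and Rpl39l, a paralog of Rpl39 with frozen log2 values of 1.31 or less, at 2.45 ± 0.62. Of 79 nuclear genes of the respiratory chain and ATP synthase, 65 were lower and 0 higher (median -1.0), led by Sdhd of complex II at -1.84 ± 0.23 and Ndufa8 of complex I at -1.74 ± 0.29. Genes of similar normalized value, which is not scaled to gene length, were also lower more often than all genes: in the range of mean log2 value that holds the middle of the members, 4.89 to 5.82, 34.1% of 5849 tested genes were lower (median -0.27). There, 26 of the 38 members were lower (68.4%, median -0.75). That range was set after the values had been seen.

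The promoters of the members were rich in CpG and often shared with another gene. RefSeq promoter windows, 250 bases before to 50 bases after a start, were at hand for 69 members (75 windows). Their median GC content was 58.7% and their median ratio of observed to expected CpG 0.82, against 52.7% and 0.384 over all 32851 windows. A ratio over 0.6 was found in 90.7% of the member windows, against 35.8% of all windows and 47.4% of the windows of tested genes. CpG-rich promoters are a known site of H3K4m3 in active and poised genes.

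Letters of known activator motifs were searched on both strands. The ETS core CCGGAAG stood in 34.7% of member windows, against 8.86% of all windows and 11.4% of the windows of tested genes. The NRF1 core GCGCATGC stood in 10.7% of member windows, against 2.71% of all and 3.54% of tested windows. The core AAGATGGCG of YY1, an activator and repressor, stood in 10.7%, against 1.4% of all and 1.83% of tested windows. These 3 cores hold the letters CG, and no allowance was made for the higher CpG of member windows. The CCAAT box was about as common in members as elsewhere (40% against 37.4% of all and 38.3% of tested windows). TATAAA was found in 6.67% of member windows, against 13.6% of all and 12.3% of tested windows. The ETS core ends, and the YY1 core begins, with the letters AAG, so a run of letters can hold both. Lower calls in FFPE were made for 20 of the 26 members with the ETS core (median -0.79), 4 of the 8 with the NRF1 core (median -0.59) and 5 of the 8 with the YY1 core (median -0.96). They were also made for 24 of the 27 with the CCAAT box (median -0.93) and 4 of the 5 with TATAAA (median -0.89). A match is a run of letters and not a shown binding site.

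Divergent promoters, in which 2 genes start close together and run apart, were found for 26 of the 69 members (37.7%) with a largest distance of 1000 bases between starts, against 12.2% of all genes in the promoter table and 13.9% of the tested ones. Of these 26 members, 20 were lower in FFPE (median -0.86), and of the 43 without such a partner 30 were lower (median -0.74). The 24 partners that are not themselves members had 13 lower calls and 1 higher call, at a median of -0.46. Reads near a shared start may be counted for either gene, so a member and its partner are not independent.

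Mrps11 and Mrpl46 are members that face each other, with starts 42 bases apart on chromosome 7. Mrps11, of the small subunit platform, had 5.22, 5.76, 4.68 and 5.12 in FFPE brain, heart, kidney and liver, against 6.19, 5.80, 5.96 and 6.44 in the frozen libraries. Mrpl46, of the large subunit, had 4.96, 5.09, 4.91 and 5.46 in FFPE libraries, against 5.99, 5.87, 6.07 and 6.04 in frozen libraries. The fitted differences were nearly equal, -0.90 ± 0.21 for Mrps11 and -0.89 ± 0.17 for Mrpl46, and both passed. Within organs they were less alike in heart and liver than in brain and kidney. In brain, heart, kidney and liver they were -0.969, -0.041, -1.283 and -1.310 for Mrps11. For Mrpl46 they were -1.032, -0.775, -1.162 and -0.579. The pair was chosen after its values had been seen, and the stretch between the starts is printed because the genes share it.
Mrps11 and Mrpl46 (chr7:78783090-78783130, strand of Mrps11, no searched motif): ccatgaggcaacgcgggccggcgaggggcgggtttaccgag

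Among the 6 members whose partners had the highest mean log2 value, the sides of a shared promoter had unlike values in some pairs. Mrpl49 starts 192 bases from Fau, which encodes a cytoplasmic ribosomal protein fused to a ubiquitin-like one. Fau had 6.09, 6.10, 5.94 and 6.53 in FFPE brain, heart, kidney and liver, against 6.93, 6.85, 7.10 and 7.82 in the frozen libraries. Its libraries did not overlap and it was lower at -1.01 ± 0.15 (adjusted p = 0.000358, limma), beside Mrpl49 at -0.16. Mrpl43, a large subunit protein, starts 116 bases from Twnk, the helicase that unwinds mitochondrial DNA, and the order was the opposite. Mrpl43 was lower at -1.20 ± 0.17 (adjusted p = 0.000313, limma), whereas Twnk was at -0.36 ± 0.21 (adjusted p = 0.175, limma). Twnk had 6.639, 6.590, 6.574 and 6.739 in FFPE brain, heart, kidney and liver, against 6.685, 6.483, 6.694 and 8.129 in the frozen libraries. Frozen liver was thus its highest library, and the annotated spans of Mrpl43 and Twnk overlap. The difference between the sides of a promoter was not tested.

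The other 4 named pairs lay between these. Mrpl40 was at -0.97 and Hira, a histone chaperone 113 bases away, at -0.75. Mrpl21 was at -0.87 and Ighmbp2, a helicase 32 bases away, at -0.47, and their annotated spans overlap. Mrpl50 was at -0.65 and Zfp189, a zinc finger gene 93 bases away, at -0.93. Mrps18b was at -0.71 and Ppp1r10, a regulator of protein phosphatase 1 whose start lies 756 bases away, at -0.74. All of these members and partners passed as lower. The partner that was higher in FFPE was Ncapd2, a condensin subunit 614 bases from Mrpl51, at 0.72 ± 0.18 (adjusted p = 0.00679, limma), beside Mrpl51 at -0.84 ± 0.18. Partners that serve mitochondria, chosen after their values had been seen, included Sars2, the mitochondrial seryl-tRNA synthetase, at -0.97 beside Mrps12 at -1.15, and Ndufb5, a subunit of complex I, at -0.999 beside Mrpl47 at -0.54.

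**Figure D5:**
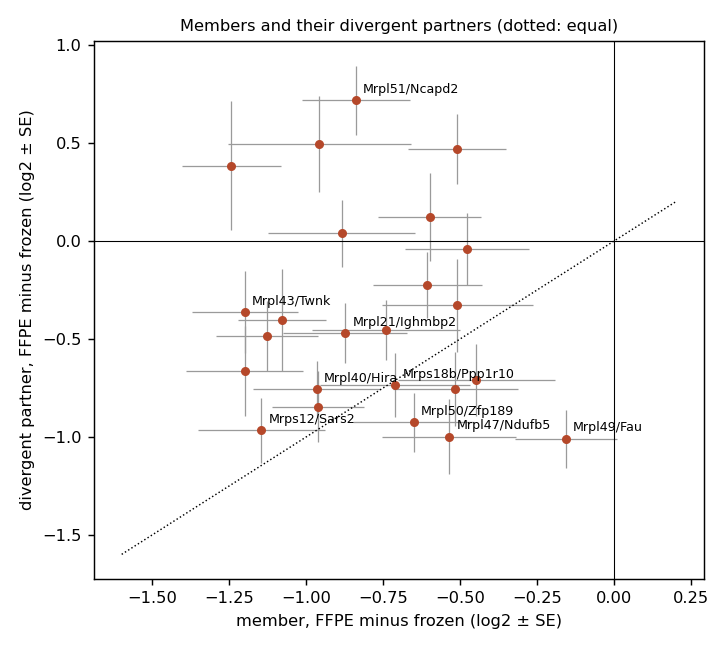
FFPE minus frozen log2 difference of each member (horizontal axis) and of its divergent partner (vertical axis), with SE as bars and 1 point for each of the 24 partners that are not members; the dotted line marks equal differences. Fau lies far below its partner Mrpl49 and Ncapd2 is at 0.72 beside Mrpl51 at -0.84.

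The stretches between the starts are shown for Mrpl49 and Mrpl32. Mrpl49 is the member that differs most from its partner among the 6, and the stretch of Mrpl32 holds NRF1 cores in 3 places. Mrpl32, the counterpart of bacterial L32, was lower at -1.20 ± 0.19 (adjusted p = 0.000534, limma) and Psma2, a proteasome subunit 205 bases away, at -0.66 ± 0.23 (adjusted p = 0.0358, limma). Each sequence reads 5′ to 3′ on the minus strand, the strand of the member (RefSeq, GRCm38.p6). Capitals mark NRF1 cores and a CCAAT box (printed as its reverse complement ATTGG). In the first of the 3 places the core overlaps its reverse complement, whose last letters gc are not in capitals.
Mrpl49 and Fau (chr19:6057756-6057946): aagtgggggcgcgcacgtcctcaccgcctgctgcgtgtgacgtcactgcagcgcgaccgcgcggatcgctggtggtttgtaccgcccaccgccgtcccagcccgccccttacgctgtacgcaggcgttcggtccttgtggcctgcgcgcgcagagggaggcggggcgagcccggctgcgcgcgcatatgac
Mrpl32 and Psma2 (chr13:14613038-14613241): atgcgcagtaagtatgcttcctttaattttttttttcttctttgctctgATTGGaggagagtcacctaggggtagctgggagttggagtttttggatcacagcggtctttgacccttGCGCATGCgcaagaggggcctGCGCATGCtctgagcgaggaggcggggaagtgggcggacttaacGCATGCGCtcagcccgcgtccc

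The paralogs of the S18 family were each lower in FFPE. Mammals have 3 genes related to bacterial S18, Mrps18a, Mrps18b and Mrps18c, whose products take different places in the ribosome. Mrps18a was lower in FFPE at -1.02 ± 0.20, Mrps18b at -0.71 ± 0.24 and Mrps18c at -0.74 ± 0.24. Each passed, with adjusted p of 0.00176, 0.0334 and 0.0268 (limma). The 3 were chosen for their kinship after the values had been seen.

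Few members differed between organs by the test. Each organ was set against the mean of the other 3 in the same model, with 2 libraries of the organ and 6 of the others. In brain, heart and kidney 0 members passed, where 10.1%, 2.57% and 1.21% of all tested genes passed in either direction. At an unadjusted p under 0.05 there were 6 members lower and 0 higher in brain, 1 higher and 2 lower in heart, and 0 in kidney, beside 20.5%, 15% and 9.66% of all tested genes in either direction. In liver 2 members were higher and 0 lower, where 5.13% of all tested genes were higher and 4.84% lower. At an unadjusted p under 0.05, 11 members were higher and 0 lower in liver, beside 10.5% and 11.5% of all tested genes. Without FFPE liver, 5 members passed as lower in brain and 2 as lower in heart. Without frozen liver, 1 passed as lower in brain and 1 as higher in heart. Shares of all tested genes were not counted for organ comparisons in these fits.

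Mrpl12 and Mrpl9 were the members that passed in liver. Mrpl12, the counterpart of bacterial L12, forms the flexible stalk of the large subunit and has also been reported to bind the mitochondrial RNA polymerase (gene ID 56282, chr11:120484637-120488754). It had 5.84 and 6.90 in FFPE and frozen liver, against 4.95, 5.09 and 5.14 in FFPE and 5.53, 5.63 and 6.39 in frozen brain, heart and kidney. Liver was the highest organ within each preservation type, with frozen kidney nearest to it. The fitted difference was 0.91 ± 0.21 (SE), or 1.88-fold higher in liver, with an adjusted p of 0.0118 (limma). The call was lost without frozen liver, at an adjusted p of 0.177, and held in the other 12 alternatives. Mrpl9, the counterpart of bacterial L9 (gene ID 78523, chr3:94443154-94448708), had 6.09 and 7.34 in FFPE and frozen liver, against 5.47, 5.28 and 5.61 in FFPE and 6.80, 6.27 and 6.77 in frozen brain, heart and kidney. Liver was again highest and heart lowest within each preservation type. It was 1.61-fold higher in liver, at 0.68 ± 0.17 with an adjusted p of 0.02 (limma), and this call was lost without FFPE brain, FFPE kidney, frozen heart, frozen kidney or frozen liver, with a highest adjusted p of 0.162.

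The promoter of Mrpl12 is shown as that of the member with the largest difference in liver. The stretch chr11:120484487-120484636 lies just before its start on the plus strand (RefSeq, GRCm38.p6) and holds none of the searched motifs.
Mrpl12: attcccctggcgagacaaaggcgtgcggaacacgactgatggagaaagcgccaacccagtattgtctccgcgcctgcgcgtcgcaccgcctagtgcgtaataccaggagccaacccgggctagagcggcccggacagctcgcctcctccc

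In the deposited values, the median over all members for liver lay above 0 within frozen libraries and near 0 within FFPE libraries. The median of liver minus the other organs was 0.17 in the fit, beside -0.01 for all tested genes. Within FFPE libraries it was -0.02 with 38 of 78 members above 0, and within frozen libraries it was 0.37 with 71 of 78 above 0. Liver was the highest organ in 23 members within FFPE and in 56 within frozen libraries, beside 27.7% and 32.5% of all tested genes. By CPM, which go by depth, the members summed highest in liver within each preservation type. The sums were 3067 against 2672 to 2846 in FFPE and 4990 against 4050 to 4664 in frozen libraries. The part of the scaling in this contrast was not tested. Whether the liver difference depends on preservation was not tested either, since each combination has 1 library. Without frozen liver 0 members passed as higher in liver, and without FFPE liver 7 did.

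Mrpl17 was the member with the largest positive difference in heart, at 0.58 ± 0.18 (adjusted p = 0.119, limma), with heart above the mean of the other organs by 0.69 within FFPE and by 0.46 within frozen libraries. In brain it was at -0.56 ± 0.18 (adjusted p = 0.065, limma). Mrps6 in liver at -0.65, Mrpl36 in brain at 0.50 and Mrps11 in kidney at -0.43 were the largest differences of opposite sign to the members' median in those organs, and did not pass. The fitted difference had the sign opposite to that median in 20 of 78 members in brain, 26 in heart, 33 in kidney and 17 in liver.

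Among related genes, calls between organs were few except in liver for the cytoplasmic ribosome. In liver 16 of the 85 cytoplasmic ribosomal protein genes were higher and 0 lower (median 0.44), with Rps4l at 0.98 ± 0.26 and Rpl12 at 0.95 ± 0.26. Rpl12 had 5.66 and 7.30 in FFPE and frozen liver, against 5.10, 5.80 and 5.24 in FFPE and 5.67, 5.72 and 5.63 in frozen brain, heart and kidney, so FFPE heart exceeded FFPE liver. Rpusd3, which modifies mitochondrial ribosomal RNA, was higher in liver at 0.73 ± 0.20 (adjusted p = 0.0311, limma). Aars2, the mitochondrial alanyl-tRNA synthetase, was higher in brain at 0.82 ± 0.18 (adjusted p = 0.00833, limma). It had 6.67 and 6.57 in FFPE and frozen brain, against 5.45, 5.79 and 5.77 in FFPE and 5.63, 5.98 and 6.19 in frozen heart, kidney and liver. Uqcrq, a small subunit of complex III, was higher in liver at 0.71 ± 0.20 (adjusted p = 0.0334, limma), and Ndufa4l2 was lower in brain at -1.37 ± 0.37 (adjusted p = 0.0275, limma).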

How the data were processed

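The authors deposited a table of normalized log2 values, with 1 row per gene and 1 column for each organ and preservation type. Per the submitters' processing notes, the tools were Bowtie2, featureCounts and limma, with the build mm10. The sources used here give no versions and do not say over which part of a gene reads were counted. Undoing the log2, dividing by a scaling factor for each library and taking off an offset of 0.5 reads turned 100% of values into whole reads within 0.001. The factor does not go by depth alone, whereas CPM do. Input libraries were not analysed here.

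From these values, genes with a mean log2 value of at least 0 were tested (25680 of 27179). Differences came from limma 3.58.1 in R 4.3.3 (linear model, empirical Bayes, variance trend on intensity), with organ and preservation in 1 additive model of 8 libraries with 3 residual degrees of freedom. Departures of single organs from the common preservation difference count as spread. For each of 5 comparisons p-values were adjusted over all tested genes by Benjamini-Hochberg, with a threshold of 0.05, and the script was tested on simulated data. Log2 values are not scaled to gene length, so a gene's level was compared between libraries. The choice of partners and of genes of similar value went by the unscaled mean log2 value. Coordinates, divergent starts and promoter letters are from RefSeq tables of GRCm38.p6, the assembly that mm10 denotes.

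Members and lists were chosen with earlier results of these data known. Named genes were the up to 6 members with the largest passing difference in each direction and comparison, the member that went most against the group, the 3 members closest to 0 for FFPE minus frozen, the 6 members with the divergent partners of highest level, and the 2 largest passing genes of each list. Some of these are given as counts only. Alternatives were quantile normalization, median centring, no filter and a stricter filter on low values, precision weights from recovered reads, leaving out each library, and values within organ or preservation type. Intervals from reads cover counting error only.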

Additional observations from a re-analysis of the deposited data

Results flagged for a closer look

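In 10 members FFPE was the higher in some organs and the lower in others, and the difference between organs was not tested since each has 1 library of each kind. FFPE was higher in heart for Mrpl30 (0.017 log2 units), Mrpl39 (0.058), Mrpl15 (0.240), Mrps7 (0.015), Mrps14 (0.213), Mrpl35 (0.148), Mrpl33 (0.066) and Mrpl1 (0.144), and lower in liver for each of these. FFPE was higher in kidney for Mrpl10 (0.077), Mrpl17 (0.270) and Mrpl35 (0.013). It was also higher in heart for Mrpl17 (0.063) and in brain for Mrpl1 (0.127). These 10 members held 13 positive differences, of which 1 exceeded its counting error doubled, that of Mrpl17 in kidney, where 734 FFPE and 241 frozen reads stood behind values of 7.04 in FFPE and 6.77 in frozen tissue. In liver Mrpl17 had 6.82 in FFPE and 7.37 in frozen tissue, from 485 and 420 reads.

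The groups held 1 library for each organ and preservation type, so single libraries were not screened for standing apart from replicates.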

How the results depend on the processing

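No paired analysis was possible because the columns carry no replicate number, and organ, which the libraries share, is already a term of the model. Lower calls in FFPE numbered 42 to 63 members over 13 alternatives, and 34 members passed in every one. Of all tested genes 13.3% to 26% were lower in these alternatives, with 24.3% after median centring, which gave the 63. Genes passing in every alternative were not counted over all tested genes. Quantile normalization gave 49 lower and 1 higher, where 13.3% of all tested genes were lower, and moved the median of all tested genes to 0.02 (0.04 after median centring). Under quantile normalization 2 members passed as lower in brain and 1 as higher in heart. In FFPE minus frozen, Mrpl10, Mrpl17 and Mrpl49 then reversed to 0.021, 0.411 and 0.144. Mrpl17 ranged from -0.234 to 0.037 over the leave-one-out fits and reversed without FFPE liver or frozen liver. The cause of these changes was not tested. In the deposited values the median difference within liver, -1.124, lay further from the fitted median than the spread over organs. Leaving out 1 library, which also takes the other library of its organ out of FFPE minus frozen, gave 42 to 56 lower calls for FFPE, 0 to 5 passing members in brain, 0 to 2 in heart and 0 to 7 in liver. The lowest FFPE counts, 42, came without FFPE kidney or frozen kidney, where 14.9% and 14.5% of all tested genes were lower. Of 206 values of single named genes under alternatives, 187 kept direction and side of the threshold, 12 lost and 2 gained the call, and 5 reversed. A member with few reads, such as Mrps6, Mrps21 or Mrpl36, limits what can be said of it. Mrps6 was not tested under the stricter filter.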

Other observations

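Gene length and overlap with neighbours varied among the members. The 39 members with a span shorter than the members' median of 7690 bases had a median difference, FFPE minus frozen, of -0.87, and the 39 others of -0.73. Over all tested genes with a RefSeq span the medians were 0.39 for the 8128 genes shorter than that length and 0.04 for the 16120 others. Spans of 25 members overlap another annotated gene. Of these 20 were lower in FFPE (median -0.87), and of the 53 without overlap 37 were lower (median -0.77).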
